A study of Mus musculus with 10 samples.

Results

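The cytosolic ribosomal protein genes of the mouse were examined in bulk RNA of the dissected intermediate lobe (IL) of the pituitary. A gene was included when its Ensembl identifier maps to a symbol that starts with Rpl or Rps, goes on with a number and ends at most in a short suffix for a related gene, or when it is Rplp0, Rplp1, Rplp2 or Rpsa. Genes whose symbol marks a pseudogene and the Rps6k kinases were left out. RefSeq lists all of the genes kept as protein-coding except Rps4y2, which it lists as Rps4l, a transcribed pseudogene. This gave 83 of the 29527 genes in the table: 47 genes of large subunit proteins, 3 of the stalk of the large subunit and 33 of small subunit proteins. The choice used symbols only and no measured value. Of the 83 genes, 81 passed the filter on low values and were tested. Rpl3l and Rpl39l were not tested, with a mean log2 value in WT of 1.16 and -1.88.

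RNA was collected from 10 mice of mixed background aged 2 to 3 months per the labels, with 1 library per mouse. Each genotype included both sexes, per the study. The groups were 4 wild-type (WT) mice, 3 p27-/- mice and 3 p27-/-;Sox2+/- mice. The p27-/- mice lack the cell cycle inhibitor P27 in every cell. The p27-/-;Sox2+/- mice in addition carry only 1 working copy of Sox2, the gene of a transcription factor. The study describes SOX2 in the stem cells of this tissue and, at lower levels, in melanotrophs, its endocrine cells. Both mutant genotypes share the p27 deletion, and mice with the Sox2+/- genotype alone were not analysed here. The study's purpose in setting these genotypes side by side was to see how Sox2 dosage modifies the response of the IL to loss of P27 before tumours form. The values are log2 of normalized read counts, and every difference below is on that log2 scale.

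A ribosome is built of a large and a small subunit, each made of ribosomal RNA and a fixed set of proteins, most of them present once per ribosome. The genes of these proteins are scattered over the genome and are usually expressed together, at high levels and in most cell types. Their mRNAs typically start with a run of pyrimidines, the 5′ terminal oligopyrimidine (5′ TOP) tract, through which mTORC1 controls their translation.

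The start regions of 6 genes are printed because the response of these genes to loss of p27 had the smallest p-values among those with a RefSeq promoter entry. Rpl29, which also passed the test, is named only. Each line runs from 60 bases before the annotated start to 20 bases from it onward, 5′ to 3′ along the gene's strand, in RefSeq GRCm38.p6. Capitals mark runs of at least 5 bases that are each C or T within 20 bases either side of the start.
Rpl27, chr11:101442185-101442264, plus strand: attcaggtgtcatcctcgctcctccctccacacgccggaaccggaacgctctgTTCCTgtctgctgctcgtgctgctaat
Rpl10a, chr17:28328411-28328490, plus strand: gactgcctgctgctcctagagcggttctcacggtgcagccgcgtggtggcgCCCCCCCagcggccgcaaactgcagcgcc
Rps19, chr7:24884532-24884611, plus strand: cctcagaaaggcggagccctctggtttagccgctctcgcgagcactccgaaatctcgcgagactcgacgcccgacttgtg
Rps24, chr14:24490618-24490697, plus strand: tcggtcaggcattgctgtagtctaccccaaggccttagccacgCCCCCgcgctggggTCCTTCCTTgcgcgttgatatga
Rpl35, chr2:39005112-39005191, minus strand: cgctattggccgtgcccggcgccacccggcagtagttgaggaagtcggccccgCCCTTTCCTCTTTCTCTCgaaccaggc
Rpl10, chrX:74270756-74270835, plus strand: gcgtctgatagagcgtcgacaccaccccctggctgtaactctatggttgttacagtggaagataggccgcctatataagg

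The longest marked run was 18 bases in Rpl35 and 9 bases in Rps24, and none of at least 5 bases was found in this window of Rps19 or Rpl10. A run of at least 8 such bases, which the search allowed on the gene's strand only, lay within 20 bases of the start in 28 of the 60 tested ribosomal protein genes with an entry (46.67%) and in 15.87% of the 27025 genes of the RefSeq promoter table, which also holds genes that were not tested here. The letters CCGGAAG, the core of sites bound by ETS family factors, searched on both strands of the 300-base window, were found in 38.33% of the 60 genes and in 9.14% of the genes of that table. TATAAA, the TATA box, searched in the same way, was found in 11.67% and 14.16%. A gene was counted once for each motif, also where motifs overlapped, and 1 start, the most upstream, was taken for each gene.

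The deletion and the tissue were checked first. Cdkn1b, the gene of P27, was between 8.39 and 8.85 in WT, between 8.04 and 8.27 in p27-/- and between 7.73 and 8.10 in p27-/-;Sox2+/- samples, so that it remained measurable in both mutants and was lower than in every WT sample. By limma with Benjamini-Hochberg adjustment over all tested genes, it fell by 0.43 on the log2 scale in p27-/- (adjusted p = 0.047), and the p27-/-;Sox2+/- samples differed from WT by -0.72 (adjusted p = 0.00854). Which exons the remaining reads came from was not tested. Sox2 was 0.46 lower than WT in p27-/-;Sox2+/- samples (adjusted p = 0.0811). All 6 melanotroph markers were found, with a summed level between 18.2 and 19.2 on the log2 scale in the 10 samples. Markers of adjoining tissue varied within genotypes: the summed level of 6 posterior lobe markers was between 9.78 and 12.29 in WT, 10.48 and 10.72 in p27-/-, and 10.03 and 12.07 in p27-/-;Sox2+/- samples. The summed level of 5 anterior lobe hormones was higher, between 13.86 and 17.76 in WT and between 12.76 and 16.55 in p27-/- samples. In p27-/-;Sox2+/- samples it was between 13.39 and 14.82. In bulk tissue, a change in the number of cells of a type and a change in the RNA of each cell cannot be told apart.

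The ribosomal protein genes moved together from mouse to mouse. Their mean deviation from the average over the 10 samples was 0.22 in WT replicate 1, -0.10 in WT replicate 2, -0.22 in WT replicate 3 and -0.29 in WT replicate 4. It was 0.20, 0.18 and 0.04 in p27-/- replicates 1 to 3, and -0.18, 0.01 and 0.13 in p27-/-;Sox2+/- replicates 1 to 3. WT replicate 1 thus lay above every mutant sample, whereas the other 3 WT samples lay below every p27-/- sample. Within genotypes, a single component held 75.11% of the variance of the 81 genes, against 26.96% of that of the other 17187 tested genes. The median SD within genotypes was 0.21 for these genes and 0.15 for the others.

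This shared movement set the order of samples gene by gene. WT replicate 1 was the highest WT sample in 70 of the 81 genes (86.42%), as against 27.44% of the other tested genes. WT replicate 4 was the lowest in 49 (60.49%, against 20.64% of the others). Among p27-/- samples, replicate 3 was lowest in 67 genes (82.72%, against 32.45%). Among p27-/-;Sox2+/- samples, replicate 1 was lowest in 75 (92.59%, against 34.97%) and replicate 3 highest in 69 (85.19%, against 37.23%). Ribosomal protein rows took between 1.04% and 1.40% of the summed linear values of a sample.

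**Figure D1:**
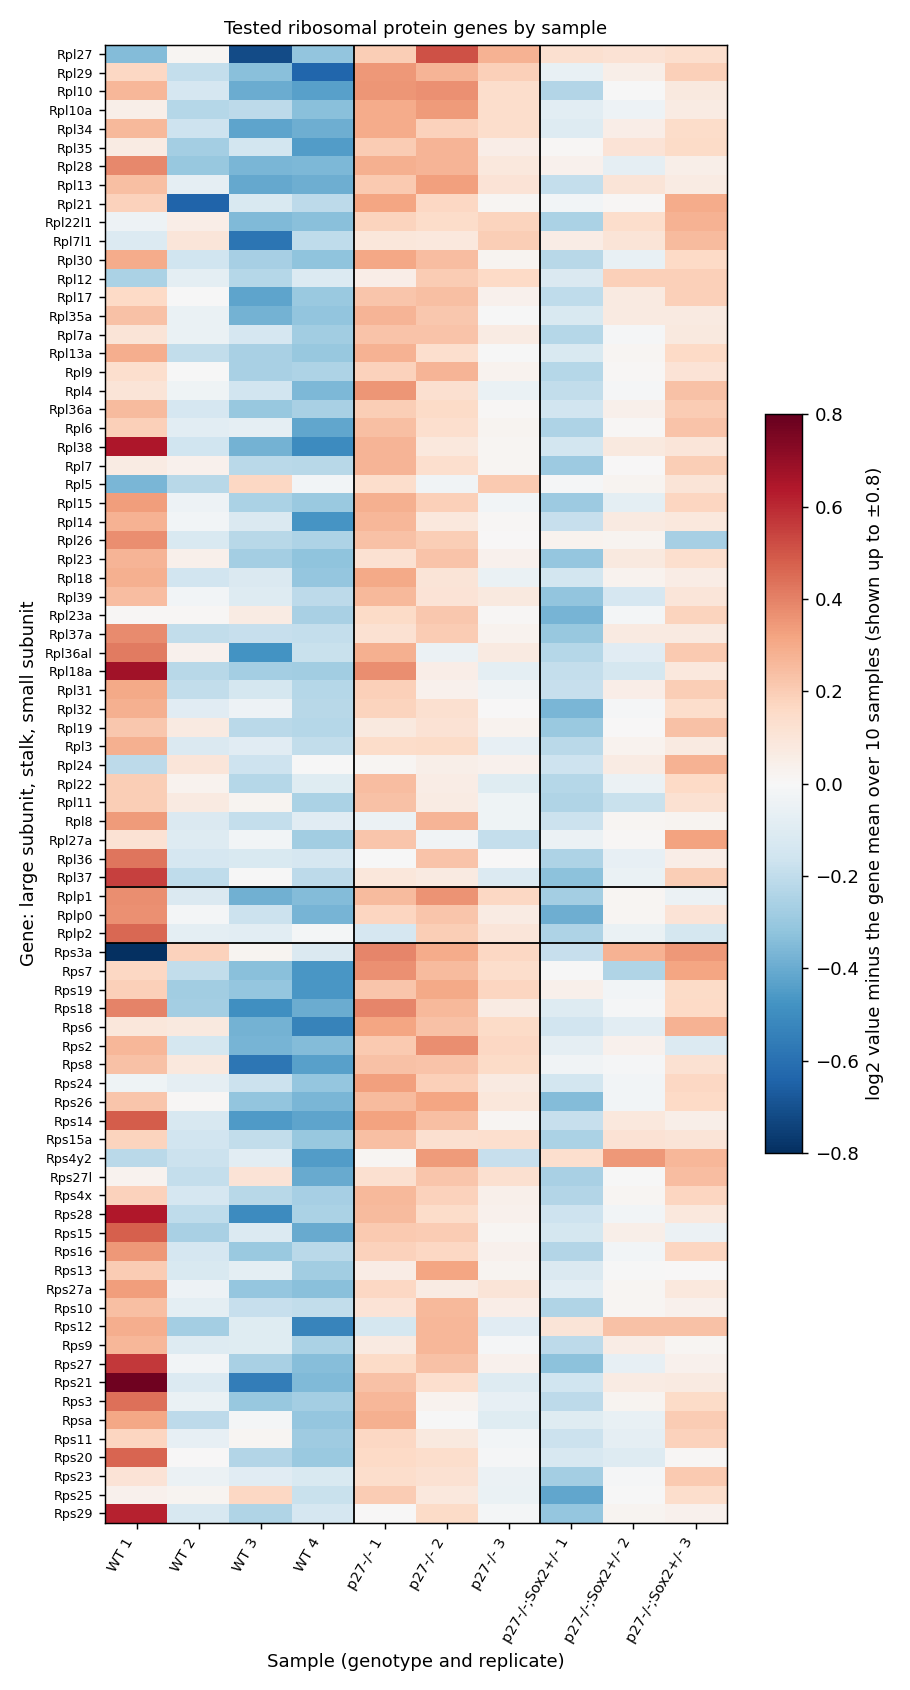
Tested ribosomal protein genes (rows) in the 10 samples (columns), coloured by the log2 value minus the gene's mean, with black lines between the large subunit, stalk and small subunit genes and between genotypes; colours stop at 0.8 in either direction. WT replicate 1 is red in most rows while the other WT samples are mostly blue. In the first small subunit row, Rps3a, WT replicate 1 is blue instead.

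Other measures moved with WT replicate 1. Its mean deviation was 0.52 for the 13 mitochondrially encoded genes, 0.49 for 6 macrophage markers and 0.50 for 6 fibroblast and mural markers, the highest of the 10 samples for each of these lists. For the posterior lobe list it was 0.68, with 0.74 and 0.92 in WT replicates 3 and 4 and -0.66 in WT replicate 2. The 1515 other tested genes with a transcript under 1000 bases, a length like that of most ribosomal protein mRNAs, had a mean deviation of 0.08 in WT replicate 1, and between -0.06 and -0.02 in the other WT samples. The part of these measures in the level of the ribosomal protein genes was not tested.

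Of the 11 genes in which WT replicate 1 was not the highest WT sample, it was the lowest in 4: Rpl5, Rpl12, Rpl24 and Rps3a. Rps3a (ENSMUSG00000028081, listed by RefSeq as Rps3a1, chr3:86137940-86142668), a small subunit protein, was 10.91 in WT replicate 1 and 12.47, 12.32 and 12.18 in WT replicates 2 to 4. In p27-/- samples it was 12.68, 12.59 and 12.45, and in p27-/-;Sox2+/- samples 12.11, 12.57 and 12.64. A single WT sample was therefore more than 1 log2 unit below all 9 others, in the library where most other ribosomal protein genes were high. The difference between p27-/- and WT was 0.61 ± 0.28 (SE, adjusted p = 0.200 by limma with Benjamini-Hochberg adjustment), and 0.25 without that sample. Rpl5, a 5S ribosomal RNA partner that also binds MDM2, was 9.08, 9.23, 9.61 and 9.43 in WT and between 9.42 and 9.66 in all mutant samples. Rpl11, its partner in that particle, was 10.63, 10.50, 10.45 and 10.18 in the same WT samples, with WT replicate 1 the highest.

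In p27-/- compared with WT samples, 4 ribosomal protein genes were higher and none was lower. The 4 were Rpl27, Rpl29, Rpl10a and Rps19, which make up 4.94% of the 81 genes, beside 3.16% of all tested genes that were higher and 4.62% that were lower. The share past the threshold was thus near that of all tested genes. The differences were nearly all of the same sign: 78 of 81 were above 0 (96.3%, against 51.6% of all tested genes), and their median was 0.22, a fold of 1.16, against 0.01 for all tested genes. At an unadjusted p under 0.05, 29 genes were higher (35.8%, against 11.3% of all tested genes) and none was lower, where 12.8% of all tested genes were. Because the genes move together from mouse to mouse, they do not count as 81 separate measurements. The SD of their mean within genotypes was 0.178, close to the median difference.

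Cell type markers moved in the same comparison. Of 6 melanotroph markers, Pcsk2 and 5330437I02Rik rose in p27-/- against WT and all 6 were above 0, with a median of 0.27. Of 6 stem cell markers, Cdh1 and Cyp2f2 fell and none was above 0, with a median of -0.26. No posterior lobe marker passed the test and none of the 6 was above 0 (median -0.73). Of the anterior lobe hormones, 5 of 6 were found, of which Fshb fell and 1 was above 0 (median -0.72). Of 6 fibroblast and mural markers 1 fell and 1 was above 0 (median -0.45), and of 5 endothelial markers 1 fell and none was above 0 (median -0.26). The median was -0.13 for 6 macrophage markers, none above 0, and -0.28 for the 13 mitochondrially encoded genes, 1 above 0, with no gene of either list past the threshold. With the mean of the anterior lobe hormones as a covariate, 3 of the 81 genes passed by limma, beside 1306 of all tested genes, and the median over the 81 was 0.23. The posterior lobe list was used in the same way below, and the part of the other lists was not tested.

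Rpl27 (ENSMUSG00000063316, chr11:101442245-101445596), a large subunit protein, had the largest difference. It was 7.64, 8.003, 7.27 and 7.67 in WT samples, 8.19, 8.50 and 8.26 in p27-/- and 8.12, 8.11 and 8.12 in p27-/-;Sox2+/- samples. Every mutant sample was above every WT sample, and WT replicate 1 was not among the high ones. The difference between p27-/- and WT was 0.67 ± 0.14 (SE, adjusted p = 0.0137).

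Rpl10a (ENSMUSG00000037805, chr17:28328471-28331033), a protein of the L1 stalk beside the exit site of transfer RNA, was 9.96, 9.68, 9.69 and 9.57 in WT samples. It was 10.21, 10.25 and 10.05 in p27-/- and 9.82, 9.87 and 9.97 in p27-/-;Sox2+/- samples. The p27-/- samples lay above both other genotypes without overlap, and the difference from WT was 0.44 ± 0.10 (SE, adjusted p = 0.0184).

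Rpl29 (ENSMUSG00000048758, chr9:106428889-106431568), a large subunit protein, was 10.39, 10.04, 9.89 and 9.59 in WT, 10.57, 10.50 and 10.42 in p27-/-, and 10.17, 10.27 and 10.41 in p27-/-;Sox2+/- samples. WT replicate 1 was just below the lowest p27-/- sample. The difference between p27-/- and WT was 0.52 ± 0.14 (SE, adjusted p = 0.0429).

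Rps19 (ENSMUSG00000040952, chr7:24884592-24889811), a small subunit protein needed for maturation of its ribosomal RNA and the gene most often mutated in Diamond-Blackfan anaemia, was 10.10, 9.63, 9.60 and 9.44 in WT samples. It was 10.13, 10.21 and 10.08 in p27-/- and 9.95, 9.88 and 10.06 in p27-/-;Sox2+/- samples. WT replicate 1 overlapped the p27-/- samples and the other 3 WT samples did not. The difference was 0.45 ± 0.13 (SE, adjusted p = 0.0468).

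**Figure D2:**
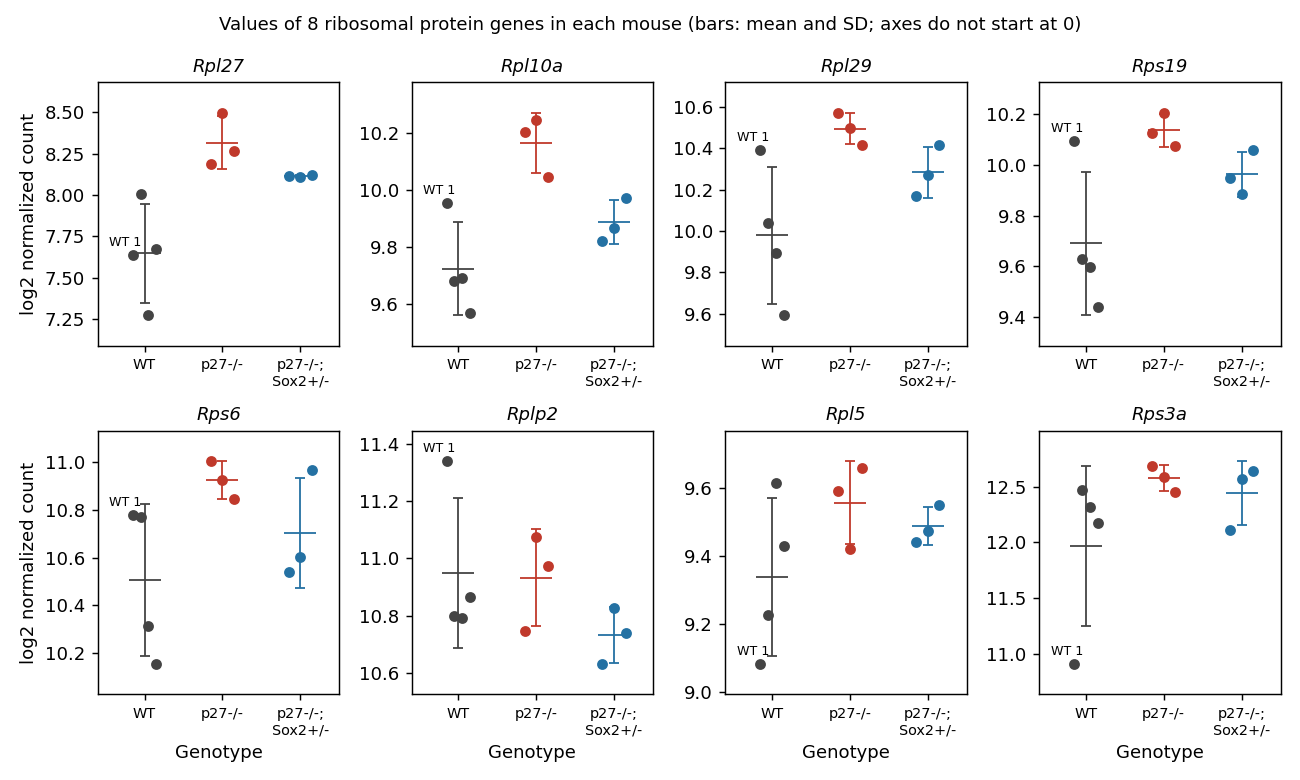
Log2 normalized counts of 8 ribosomal protein genes in each mouse by genotype, with points for mice, bars for the mean and SD, and WT replicate 1 labelled; the vertical axes differ and do not start at 0. Rpl27, Rpl10a, Rpl29 and Rps6 have no overlap between WT and p27-/-. WT replicate 1 is the highest WT sample for Rpl10a, Rpl29, Rps19, Rps6 and Rplp2, and it is the lowest for Rpl5 and Rps3a.

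The number of genes that passed depended on single libraries. Without WT replicate 1, 32 of the 81 genes were higher in p27-/- than in WT (39.51%), among them the 4 named above, while 4.20% of all tested genes were higher. The median difference was then 0.33. The smallest adjusted p-values without that sample belonged to Rps19 (0.58, adjusted p = 0.00202 by limma), Rpl28 (0.56, adjusted p = 0.00297) and Rps18 (0.62, adjusted p = 0.00358). Leaving out another library gave at most 4 genes. No gene passed without p27-/- replicate 2, and 1 passed without WT replicate 4, p27-/- replicate 1 or p27-/- replicate 3. The count was 2 without WT replicate 3 or p27-/-;Sox2+/- replicate 1 or 2, and 3 without WT replicate 2. It was 4, as with all samples, without p27-/-;Sox2+/- replicate 3. Over all tested genes, the share higher in p27-/- was 1.37%, 1.34% and 0.840% without p27-/- replicates 1 to 3, 3.79%, 1.81% and 1.52% without WT replicates 2 to 4, and 2.62%, 1.97% and 2.80% without p27-/-;Sox2+/- replicates 1 to 3. In these fits the share over all tested genes was thus below the 3.16% with all samples, except without WT replicate 2. The median stayed above 0 each time, between 0.14 and 0.33. With the mean of the posterior lobe markers as a covariate, no gene passed, where 0.799% of all tested genes were higher, and the median was 0.24. With 1 library left out, the adjusted p-value was over 0.05 in 2 of 10 fits for Rpl27, 3 for Rpl10a, 7 for Rpl29 and 9 for Rps19. In the 14 other settings run for single genes it was over 0.05 in 1, 4, 8 and 10 of them, and none of the 4 differences changed direction.

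**Figure D3:**
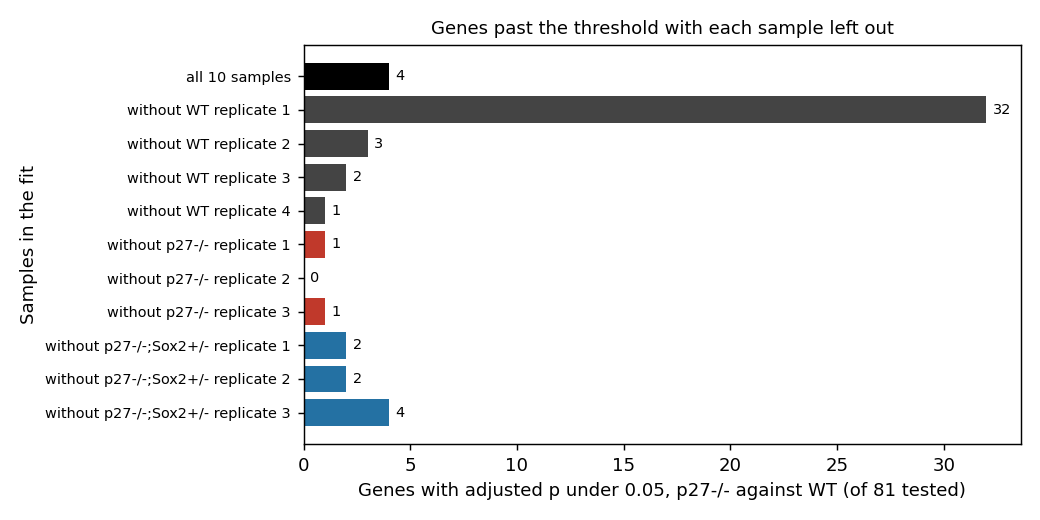
Number of the 81 tested ribosomal protein genes past an adjusted p of 0.05 in p27-/- against WT (bars, axis from 0) with all 10 samples and with each sample left out. The count is 4 with all samples, 32 without WT replicate 1 and between 0 and 4 without any other sample.

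The subunits were alike in their medians. For p27-/- against WT, the median difference was 0.22 over 45 large subunit genes, of which 3 rose, 0.20 over the 3 stalk genes, none of which passed, and 0.22 over 33 small subunit genes, of which 1 rose. All p27-/- samples lay above all WT samples in 8 genes (9.88%), as in 10.2% of all tested genes. These were Rpl10a, Rpl12, Rpl22l1, Rpl27, Rpl29, Rps6, Rps24 and Rps27l.

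Among genes that did not pass with all samples, Rps24, a small subunit protein, was between 11.27 and 11.55 in WT and between 11.66 and 11.91 in p27-/- samples, with a difference of 0.34 (adjusted p = 0.0526 by limma). Rpl35 differed by 0.38 (adjusted p = 0.0627), Rpl10 by 0.46 (adjusted p = 0.0708) and Rps7 by 0.46 (adjusted p = 0.0734). Rps6, the small subunit protein phosphorylated by S6 kinase, was 10.78, 10.77, 10.31 and 10.15 in WT, between 10.84 and 11.00 in p27-/-, and between 10.54 and 10.97 in p27-/-;Sox2+/- samples. Its difference in p27-/- was 0.42 (adjusted p = 0.105). Smaller differences from WT were found for Rpl13a (0.26), Rps27a (0.20), which encodes a ubiquitin fusion, Rps3 (0.12), Rpsa (0.12), the laminin receptor protein, and Rpl11 (0.08), and none of these passed the test.

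Differences just below 0 were found for Rplp2 (-0.02) and Rpl37 (-0.01), and in both WT replicate 1 stood above the other WT samples. Rplp2, an acidic stalk protein that recruits elongation factors, was 11.34 in WT replicate 1 and 10.80, 10.79 and 10.86 in the other WT samples, and between 10.75 and 11.08 in p27-/- samples. Rplp1, which pairs with it, was 11.07, 10.59, 10.32 and 10.35 in WT, 10.96, 11.06 and 10.87 in p27-/- and 10.43, 10.72 and 10.66 in p27-/-;Sox2+/- samples. Its difference between p27-/- and WT was 0.38 (adjusted p = 0.139 by limma). Rplp0, the protein that anchors them, differed by 0.20 (adjusted p = 0.456).

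Second genes closely related to a ribosomal protein gene were followed beside the first, among them Rps4y2, which RefSeq lists as a transcribed pseudogene. In WT samples and per kb of transcript, Rps4x was 12.5 and Rps4y2 was 6.497 on the log2 scale. Rps27 was 12.2 and Rps27l, a P53 target, 8.91, Rpl22 was 11.1 and Rpl22l1 10.1, and Rpl36a was 10.6 and Rpl36al 11.2. Among these 4 pairs the WT ranges overlapped only for Rpl36a (10.4 to 11.0) and Rpl36al (10.8 to 11.7). The differences between p27-/- and WT were 0.10 for Rpl22 and 0.34 for Rpl22l1, 0.15 for Rps27 and 0.27 for Rps27l, 0.22 for Rpl7 and 0.32 for Rpl7l1, 0.23 for Rpl36a and 0.16 for Rpl36al, and 0.27 for Rps4x and 0.29 for Rps4y2. None of the 5 tested second genes passed the test, and Rpl3 (0.11) and Rpl39 (0.17) had partners too low to test.

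The highest mean values in WT, not divided by length, were those of Rpl4 (12.83), Rps4x (12.47), Rpl3 (12.09), Rps3a (11.97) and Rpl10 (11.87). Among tested genes the lowest were Rps4y2 (6.41), Rpl7l1 (7.06) and Rpl12 (7.21). Per kb of transcript, Rps4x and Rpl4 were at 12.5 and 12.3.

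Ribosomal protein genes have many processed copies elsewhere in the genome. The table holds 104 pseudogene rows named after 45 of the 83 genes, of which 28 were tested, and 5 had a mean at or above that of their parent: Rpl10-ps1, Rpl10a-ps1, Rpl15-ps3, Rpl27-ps3 and Rpl28-ps1. Rpl27-ps3 had a mean of 9.58 where Rpl27 had 7.99, and Rpl10a-ps1 11.27 where Rpl10a had 9.91. In p27-/- against WT, 2 of the 28 rows were higher, Rpl27-ps3 by 0.46 (adjusted p = 0.0369 by limma) and Rpl15-ps3 by 0.37 (adjusted p = 0.0476), none was lower, and 21 were above 0. Of all tested genes, 3.16% were higher, 4.62% lower and 51.6% above 0. How the counting split reads between a gene and its copies is not known, so the single values of these genes are uncertain. With each gene summed with its named copies, 3 genes passed, beside 1342 of all tested genes in either direction. Rpl27 (0.50), Rpl29 (0.51) and Rps19 (0.43) remained, and Rpl10a (0.30, adjusted p = 0.143 by limma) did not.

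In p27-/-;Sox2+/- compared with WT samples, no ribosomal protein gene passed the test of limma, where 0.828% of all tested genes were higher and 1.88% lower. At an unadjusted p under 0.05, 6 were higher (7.41%, against 7.64% of all tested genes) and none was lower, against 10.2%. The differences were above 0 in 60 of 81 genes (52.1% of all tested genes), with a median of 0.07. With 1 library left out, this median ranged from 0.0006, without WT replicate 4, to 0.188, without WT replicate 1. Rps4y2, the transcribed pseudogene, had the smallest p: it was 6.43, 6.47, 6.56 and 6.20 in WT and 6.78, 6.99 and 6.91 in p27-/-;Sox2+/- samples, with no overlap and a difference of 0.48 (adjusted p = 0.084). Rps4y2 (chr6:148354656-148355596) lies on the chromosome that also carries Cdkn1b, and whether its position has a part in the difference was not tested. Rpl27 differed by 0.47 (adjusted p = 0.10), also with no overlap, and Rpl7l1, Rpl35 and Rpl12 by 0.34, 0.29 and 0.26. Groups did not overlap in these 2 genes (2.47%) on the higher side, as in 7.02% of all tested genes, and Rplp2 had the lowest difference, -0.22. Without WT replicate 1, 3 genes were higher, Rps19 (0.41), Rpl29 (0.44) and Rps18 (0.40), where 1.03% of all tested genes were, and without WT replicate 2 Rpl27 was (0.59), beside 0.961% of all. The marker lists moved in this comparison too, with medians of 0.12 for melanotroph, -0.20 for stem cell, -0.71 for posterior lobe, -0.93 for anterior lobe and -0.46 for fibroblast and mural markers.

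In p27-/-;Sox2+/- compared with p27-/- samples, no ribosomal protein gene passed the test of limma, where 0.0811% of all tested genes were higher and 0.0637% lower. At an unadjusted p under 0.05, 3 were lower (3.7%, against 3.19% of all tested genes) and none was higher, against 3.46%. The 3 were Rplp1 (-0.36), Rpl10 (-0.34) and Rpl10a (-0.28). The difference was below 0 in 76 of the 81 genes, that is, above 0 in 5 (48.6% of all tested genes), with a median of -0.17 against -0.0044 for all tested genes. The 5 were Rps4y2 (0.19), Rps12 (0.18), Rpl27a (0.09), Rpl24 (0.03) and Rpl7l1 (0.01). With 1 library left out, the median over the 81 genes ranged from -0.233 to -0.061. The value nearest 0 was that without p27-/-;Sox2+/- replicate 1, where 16 genes were above 0 and 65 below. In 13 genes (16.05%, against 7.75% of all tested genes) every p27-/-;Sox2+/- sample was below every p27-/- sample, among them Rpl10, Rpl10a, Rpl27, Rpl29, Rplp1, Rps2 and Rps19. This comparison shares its p27-/- samples with that against WT, so the opposite signs of the medians are not separate results. The median was -0.19 for melanotroph and 0.16 for stem cell markers here, with no marker past the threshold.

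**Figure D4:**
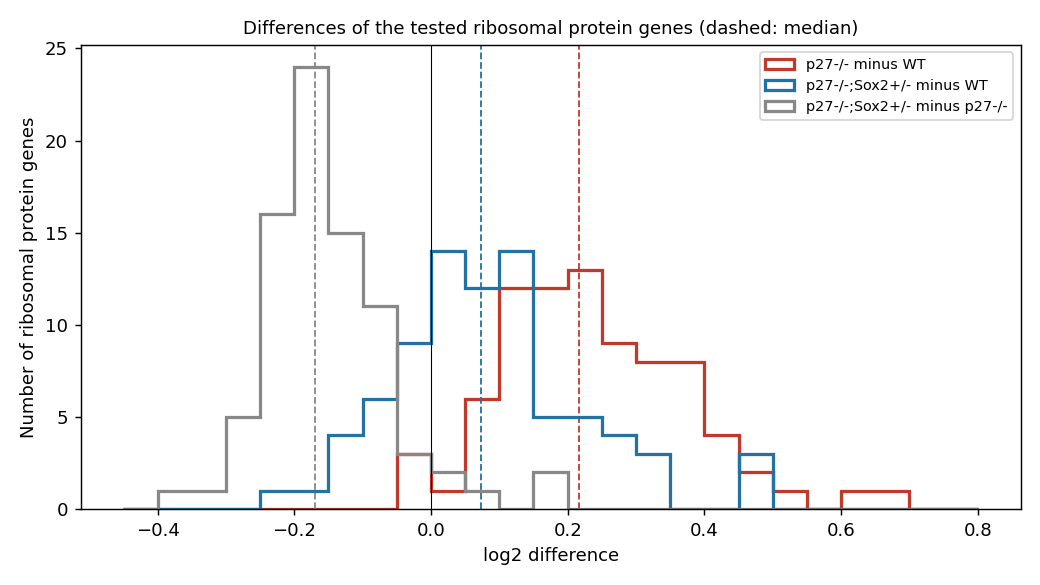
Number of the 81 tested ribosomal protein genes (vertical axis) by log2 difference (horizontal axis) in the 3 comparisons, with dashed lines at the medians of 0.22, 0.07 and -0.17. The histogram of p27-/- minus WT lies almost wholly above 0 and that of p27-/-;Sox2+/- minus p27-/- almost wholly below.

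Genes that work with the ribosomal proteins were counted for comparison of p27-/- with WT. Their counts stand beside the shares of all tested genes given above: 3.16% higher, 4.62% lower and 51.6% above 0. Among ribosome assembly factors, 10 of 109 rose and none fell (9.17% past the threshold), and 97 were above 0, with a median of 0.16. The 4 with the smallest p were Nop56 (0.54, adjusted p = 0.0176 by limma) and Nop58 (0.39, adjusted p = 0.0229), core proteins of the box C/D particles that methylate ribosomal RNA, the nucleolar GTPase Gnl3 (0.43, adjusted p = 0.0275) and the RNA helicase Ddx21 (0.41, adjusted p = 0.0321). Of 13 genes of ribosomal RNA transcription by RNA polymerase I, 2 rose, Rrn3 (0.32) and Cd3eap (0.43), and all 13 were above 0. The mean deviation of the assembly factors was between 0.08 and 0.11 in the p27-/- samples and between -0.14 and -0.02 in the WT samples, WT replicate 1 included.

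Of 46 translation initiation factors, 2 rose, Eif4a2 (0.42) and Pabpc1 (0.35), and Eif4e3 fell by 0.72 on the log2 scale (6.52% past the threshold in all). Of 22 elongation and release factors none passed, with 17 above 0. Among 25 other genes whose mRNAs carry a 5′ TOP tract, 3 rose, Hnrnpa1 (0.52), Pabpc1 and Eif4a2, the latter 2 also in the list of initiation factors, and Vim fell by 0.60. Of 34 regulators of ribosome production in the mTORC1 and MYC pathways, Larp4 rose (0.40), which is 2.94% of them. Of 75 mitochondrial ribosomal proteins, Mrps5 rose (0.34, 1.33% of the list), with 68 above 0 and a median of 0.14. None of 9 small nucleolar RNA host genes passed and all 9 were above 0, and no ribosomal protein gene outside the symbol pattern, such as Fau and Rack1, passed. In p27-/-;Sox2+/- against WT only Hnrnpa1 (0.39) passed in these lists, and none passed between the mutants. All 6 markers of proliferation rose in p27-/- against WT, with a median of 0.91, and 2 of 6, Mki67 and Top2a, in p27-/-;Sox2+/-.

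**Figure D5:**
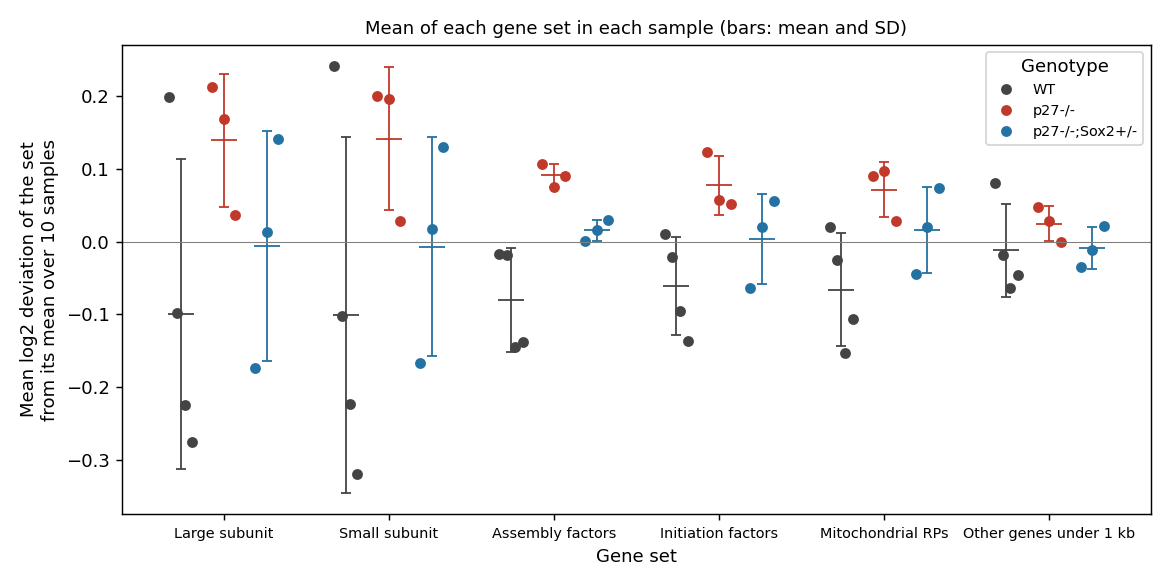
Mean log2 deviation (vertical axis) of 6 gene sets in each of the 10 samples by genotype, with points for mice and bars for the mean and SD. WT samples of the ribosomal protein sets range from about -0.3 to above 0.2, with WT replicate 1 the highest. All p27-/- samples lie above all WT samples for the assembly factors, the initiation factors and the mitochondrial ribosomal proteins.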

How the data were processed

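Total RNA of dissected IL was amplified with the Ovation RNA-seq V2 system and sequenced on an Illumina HiSeq, 1 library per mouse. Per the labels and the study's methods, the authors aligned reads with STAR 2.5.2a, counted them per gene without strand with RSEM 1.3.30 on the Ensembl transcriptome of GRCm38 and normalized with DESeq2 1.18.1. The deposited values are log2 normalized counts for 29527 genes; the transformation is not given in the sources used here. Low genes hardly vary: the median range over the 10 samples is 0.0413 for genes with a mean below 0 and 0.533 for tested genes. The values thus look shrunken at low levels, as a regularized log gives. Folds, shares of summed values and levels per kb, taken as powers of 2 or on that scale, need not equal those of the read counts. Sequencing depth cannot be read from these values. Intervals that rest on counts are therefore not given, and precision is set by how many mice there were.

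The log2 values were tested as deposited with limma 3.58.1 in R 4.3.3: 1 fit of the 3 genotypes, eBayes with trend, for 17268 genes whose mean reached 3.32 (10 on the linear scale), Benjamini-Hochberg adjustment over all of them and a threshold of 0.05. Symbols were found for 22709 genes. Positions come from RefSeq GRCm38.p6 by symbol for all 83 genes, transcript lengths from GENCODE by gene identifier for 86.02% of tested genes (the transcript with the longest coding part), and promoters from RefSeq GRCm38.p6. Rpl10l and Rpl41 were not analysed here. Python 3.11.15, pandas 2.3.3 and matplotlib 3.10.9 were used for sequences and figures. No 2 samples held identical values. Mice are the replicates. The p-values set a difference between genotypes against the spread between mice within genotypes, pooled over the 3 genotypes and moderated across genes.

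Named genes are those past the threshold, for each direction the 8 genes of lowest p in the first comparison and 4 in the others, the 5 highest and lowest in WT, a fixed set of second genes, stalk genes and well-studied genes, and up to 4 called genes of each related list. Genes shown for overlap, for the order of WT replicate 1 or without that sample were named after their values were seen. Members and lists were chosen with earlier results of these data known. Alternatives were other filters, scalings, weights, covariates, a replicate block, another threshold and each sample left out; sums with pseudogene rows and a correction for transcript length were added after seeing the data. Single values of some genes are not reported here; these genes stay in every count and median, and are left out of the plot of genes by sample and of the checks of single genes.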

Additional observations from a re-analysis of the deposited data

Results flagged for a closer look

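In 2 genes, 1 of the 4 WT samples lay far from the others by Dixon's criterion. Rplp2 was 11.34 in WT replicate 1 and between 10.79 and 10.86 in the other 3. Rpl3l, which was too low to test, was 1.33 in WT replicate 3 and between 1.09 and 1.11 in the others. Of 45 groups of WT values checked, 2 were past the critical value, where chance gives about 1 in 20, or 2.25.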

How the results depend on the processing

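The number of ribosomal protein genes past the threshold in p27-/- against WT was 4. It was 2 with no filter on low values, with only the 2 groups compared, with no trend or with quantile normalization, 14 with array weights, 0 with posterior lobe markers as a covariate and 9 at an adjusted p under 0.1. Over all genes, 1343 passed as reported, and 831, 807, 1288, 1154, 1764, 381 and 2291 in these 7 settings. In p27-/-;Sox2+/- against WT it was 0 as reported, 2 with array weights and 1 at an adjusted p under 0.1, beside 468, 1240 and 932 of all genes. With a replicate left out it ranged from 0 to 32 and from 0 to 3 in these comparisons, and was 0 between the mutants each time. The count in p27-/- against WT without WT replicate 1 was 32, as described above. Correlations of same-numbered samples lay between -0.238 and 0.182 over 9 pairs, and those of the 24 other pairs between -0.191 and 0.265. So few samples cannot settle whether replicate numbers mark a pairing. With the replicate number as a block 1 gene passed (595 of all genes), also with the correction for transcript length added. Only WT has a replicate 4, so the block gave the same median for p27-/- against WT, 0.136, as leaving that sample out. The medians kept their direction except in p27-/-;Sox2+/- against WT under that block with correction (-0.01). Under the block alone the median of that comparison was 0.0006, with 41 genes above 0 and 40 below. With Xist as a covariate that median was 0.039, with 48 genes above 0 and 33 below. For p27-/- against WT, the fit with Xist gave a median of 0.188, and 3 genes passed (1171 of all genes).

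Among values of named genes under these settings, 1233 kept their direction and side of the threshold, 44 lost the threshold, 24 gained it and 19 changed sign. The largest difference as reported among those that changed sign was 0.18, for Rps12. In p27-/- against WT, Rplp2 and Rpl37 became 0.0456 and 0.0589 with array weights, 0.0013 and 0.0033 with median centring, and 0.0278 and 0.121 with posterior lobe markers as a covariate. Rpl11 became -0.0085 under the block and -0.0555 under the block with length correction, where Rpsa was -0.0064. Rps12 became -0.0305 between the mutants when summed with its pseudogenes. With a replicate left out, Rplp2 ranged from -0.088 to 0.114, Rpl37 from -0.0941 to 0.157 and Rpl11 from -0.0085 to 0.142 against WT in p27-/-, Rps25 from -0.218 to 0.0583 in p27-/-;Sox2+/-, and Rpl27a from -0.0223 to 0.204 and Rpl24 from -0.0808 to 0.139 between the mutants. The causes were not tested. The number of mice limits these data: 3 against 4.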
